A study of Bos taurus with 24 samples.

Results

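The comparison described here set dermal fibroblasts from Holstein heifers against those from Angus heifers before any lipopolysaccharide (LPS, the endotoxin of the Gram-negative outer membrane) was added. It used the 4 Holstein and the 4 Angus samples of hour 0, which are 8 of the 24 samples of the series, and the sample titles gave breed, animal number and hour. The other 16 samples came from the same cultures at 2 h and 8 h after LPS and are used only to follow levels found at hour 0. Holstein is a dairy breed and Angus a beef breed, and the study asked whether their fibroblasts differ before and after LPS.

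Both groups of cultures were unstimulated fibroblasts from age-matched females in the second year of life, grown from shoulder skin biopsies, frozen at a low passage, revived in parallel and kept in medium with serum and insulin, transferrin and selenium. Each sample was 1 animal, with the lysates of duplicate wells pooled, and polyadenylated RNA was sequenced. The cultures are 4 randomly chosen animals of each breed. They were cells in culture, not skin, and breed and early rearing, which according to the study usually differs between these breeds, cannot be told apart.

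Dermal fibroblasts make and remodel the collagen-rich matrix of the skin. They can take on contractile features under TGF-beta, they divide when serum growth factors are present, and they act as sentinel cells that release chemokines when pattern recognition receptors meet bacterial products. Fibroblasts also keep features of their origin in culture, such as the differences between the papillary (upper) and reticular (deep) dermis and positional HOX codes.

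Values are raw read counts per row of the deposited tables, in which each row covers a gene from end to end with its introns, or a stretch to which no symbol is attached. Levels are counts per 1000000 counts (CPM) after scaling by trimmed mean of M-values (TMM). They can be compared between samples for the same gene but not between genes, because rows differ in length. Differences are log2 fold changes of Holstein over Angus from a negative binomial model (edgeR, likelihood-ratio test) with their standard error (SE) and a false discovery rate (FDR) adjusted over all rows tested. Past the threshold means an FDR under 0.05, a fold change of 2 or more in either direction and an average above 1 CPM. Groups were called separated when the ranges of the 4 animals did not overlap.

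Total counts were 51014538 to 104406293 per sample, lowest in Holstein 4 and highest in Angus 4, and a level of 3 counts stood for 0.0287 to 0.0588 CPM. In each library the total exceeded the matched reads, which were 66287735 in Angus 4 and 31440126 in Holstein 4. Some reads thus entered more than 1 count. Total counts of the breeds overlapped (exact permutation P = 0.171, two-sided). Replicates of a breed differed by more than sampling noise in each of the 12 pairs (chi-square divided by its degrees of freedom lay between 56.0 and 327). The chi-square takes counts as independent, and reads that enter more than 1 count are not. The Angus samples did not lie together. Angus 1 and Angus 4 were most like each other (r = 0.989 across symbol rows on the log2 scale, which are not independent replicates), and Angus 3 was closer to Holstein 1 (r = 0.987) than to Angus 1 (r = 0.977) or Angus 4 (r = 0.970). The 6 Holstein pairs had r from 0.984 to 0.989. In Angus 4, Holstein 2 and Holstein 4, 1 count of COL1A1 stood for 66.2 to 67.1 covered bases. Elsewhere it stood for 112.5 to 119. The reason is not known, and these 3 libraries are called those with the other COL1A1 counting. Among 13145 rows with enough reads for this check, 20 differed between these 3 libraries and the other 5 by more than 0.2 on the log2 scale of bases per count. Some of the results that rest on these libraries are given with and without them.

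Of 13055 rows with a gene symbol that were tested, 542 (4.15%) were past the threshold, of which 258 (1.98% of all) were higher in Holstein and 284 (2.18%) lower. The median log2 fold change of all symbol rows was 0.00, and 56 rows, 26 higher and 30 lower, differed by 4-fold or more. The breeds were separated in 204 of the 258 higher rows and in 213 of the 284 lower rows. Over all symbol rows tested, separation in these directions was found in 10.4% and 8.51%. The quasi-likelihood F test, which allows for the uncertainty of each row's dispersion, kept 165 of the higher and 236 of the lower rows. With total counts in place of TMM the split was 183 higher and 343 lower. Without the 3 libraries with the other COL1A1 counting, 3 Angus and 2 Holstein animals remained and 81 higher and 74 lower rows were past the threshold, while the direction was kept in all 521 of the 542 rows still testable. Of these 521 rows, 127 stayed past the threshold, and losses in single lists without these libraries are to be read beside this share. With the counting way as a covariate on all 8 samples, 259 higher and 293 lower rows were found.

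**Figure D1:**
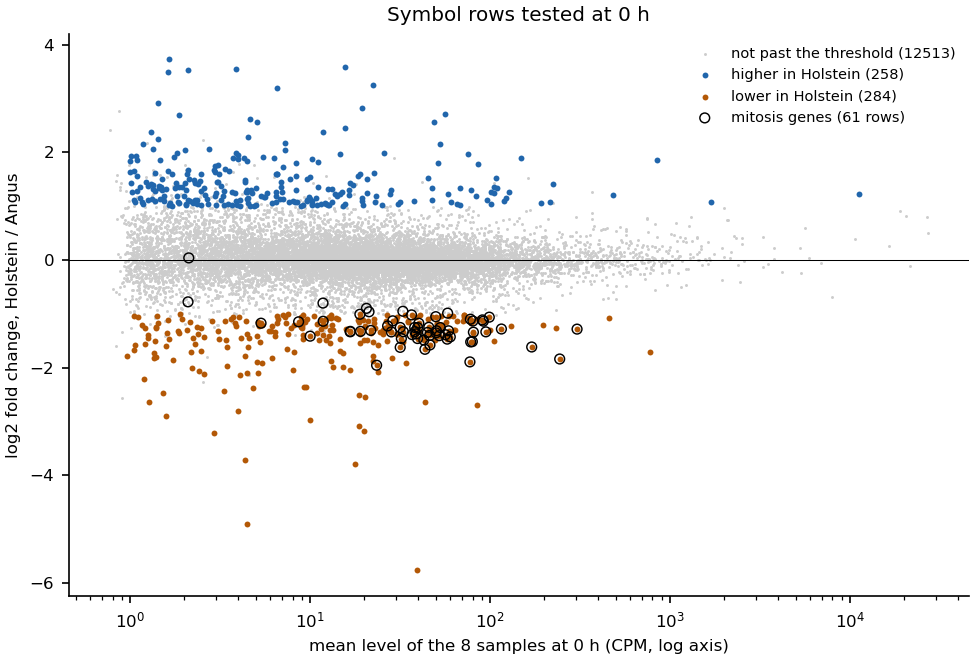
Each point is a row with a gene symbol tested at 0 h, with the mean level of the 8 samples in CPM on a log axis and the log2 fold change of Holstein over Angus on the vertical axis. Blue points are the 258 rows past the threshold and higher in Holstein, orange points the 284 that were lower, grey points are not past it, and rings mark the 61 rows of the mitosis list, 60 of which lie below 0.

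The rows that differed also separated the Angus animals from each other. In 187 of the 258 rows higher in Holstein (72.5%), Angus 1 and Angus 4 were the 2 lowest Angus samples, against 23.4% of all symbol rows. In 225 of the 284 rows lower in Holstein (79.2%), they were the 2 highest Angus samples, against 21.7% of all symbol rows. Angus 4 alone held the highest Angus level in 216 of the 284 lower rows, and Angus 3 the lowest in 217 of them. Among the Holstein samples, Holstein 4 was the lowest in 204 of the 284. The ends of the comparison were therefore held by the same few animals in most rows, and without Angus 4 the counts were 170 higher and 192 lower, without Angus 3 421 higher and 366 lower. Without Holstein 4 they were 171 and 236. The samples at either end include libraries with the deepest (Angus 4) and shallowest (Holstein 4) sequencing, and the part of depth in these counts was not tested.

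Of the largest separated differences, that of ISLR2 (chromosome 21, 34950166 to 34954615 on UMD v3.1), a transmembrane protein with a role in axon guidance, stood first among the higher rows. It was at 0.184, 0.333, 0.357 and 0.0482 CPM in Angus 1 to 4 and at 4.16, 3.27, 1.39 and 3.47 CPM in Holstein 1 to 4, and animals are listed in this order throughout. The log2 fold change was 3.73 (SE 0.52, FDR = 1.71e-08). AFAP1L2, an adaptor protein of Src signalling (chromosome 26, 35050365 to 35166042), was at 0.135, 0.965, 1.08 and 0.261 CPM in Angus and 9.92, 8.98, 5.10 and 4.51 CPM in Holstein. MAPK13, the delta form of p38 kinase (chromosome 23, 10036687 to 10045047), was at 0.0979, 0.149, 0.693 and 0.106 CPM in Angus and 3.43, 1.93, 2.48 and 4.09 CPM in Holstein, which gave 3.50 (SE 0.59, FDR = 7.25e-06). ISLR2 and MAPK13 had few counts in some Angus libraries, down to 5 and 8, while every Holstein culture had more than 100. FAM131B (3.54, SE 0.40) showed the same pattern, with Angus at 0.106 to 0.551 CPM and Holstein at 2.91 to 4.86 CPM.

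TNFSF18, the ligand of the co-stimulatory receptor GITR (chromosome 16, 41541495 to 41552708), had the highest counts among the largest increases. Its levels were 11.2, 18.5, 19.8 and 10.1 CPM in Angus and 81.5, 49.0, 150.4 and 110.3 CPM in Holstein (2.71, SE 0.34, FDR = 8.73e-11). The lowest Holstein sample was more than 2-fold above the highest Angus sample. SLC6A6, the taurine transporter, was at 3.83 ± 2.36 CPM in Angus and 19.9 ± 9.30 CPM in Holstein (SD, n = 4), and Holstein 2, at 33.7 CPM, stood apart from the other Holstein animals. GALNTL2, a polypeptide N-acetylgalactosaminyltransferase (2.63, SE 0.38), the deubiquitinase USP43 (2.57, SE 0.45) and GDAP1L1 (2.69, SE 0.80) were also among them. RBPMS2, an RNA-binding protein of smooth muscle, gave 2.37 (SE 0.72), and the desmosomal cadherin DSC2, the imprinted gene MEST and the Notch targets HEYL and HES4, described with their groups, complete the 14 largest. In 13 of the 14, Angus 1 and Angus 4 were the lowest Angus samples. The F test kept 9 of the 14, and GDAP1L1, RBPMS2, DSC2, MEST and HEYL missed its FDR limit (0.0655 to 0.0888).

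In the other direction, CRISPLD1, a secreted cysteine-rich protein (chromosome 14, 40420996 to 40471465), had the largest separated difference. It was at 12.1, 3.02, 2.38 and 17.1 CPM in Angus and at 0.373, 0.454, 0.273 and 0.0444 CPM in Holstein, which gave -4.90 (SE 0.71, FDR = 4.31e-07). The Holstein values rest on 25, 31, 25 and 2 counts. ASIP, the agouti signalling protein that blocks the melanocortin receptor, was at 21.2, 34.5, 40.7 and 35.6 CPM in Angus and at 1.37, 1.61, 3.25 and 3.29 CPM in Holstein. In contrast to most rows of this direction, ASIP did not have its highest Angus levels in Angus 1 and Angus 4, and the lowest Angus animal lay far above the highest Holstein animal. ANKRD24 was at 11.1, 4.93, 4.49 and 11.6 CPM in Angus and at 0.536 to 0.800 CPM in Holstein (-3.72, SE 0.37, FDR = 2.95e-17). NLGN4Y, a neuroligin whose row lies on chromosome X in the deposited tables, gave -3.21 (SE 0.56), with Angus 1 and Angus 4 at 8.14 and 9.15 CPM, Angus 2 and Angus 3 at 2.33 and 1.601 CPM, and Holstein at 0.333 to 0.834 CPM.

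F3, or tissue factor, the trigger of coagulation, was at 45.9, 30.4, 16.5 and 51.6 CPM in Angus and at 6.84, 4.12, 2.56 and 2.49 CPM in Holstein (-3.17, SE 0.41, FDR = 4.2e-10). PTGS1, the cyclooxygenase COX-1, was at 34.5, 13.3, 27.3 and 58.7 CPM in Angus and at 4.23, 2.62, 5.51 and 3.49 CPM in Holstein (-3.08, SE 0.40, FDR = 7.01e-10). Each of the 2 genes was separated by more than 2-fold between the nearest animals. MEGF6, a protein with EGF-like repeats whose span holds MIR551A, was at 145.8 ± 65.4 CPM in Angus and 22.5 ± 8.52 CPM in Holstein (SD, n = 4). FBP1, a gluconeogenic phosphatase (-2.89, SE 0.37), the transglutaminase TGM3 (-2.80, SE 0.69), the ephrin EFNA5 (-2.64, SE 0.37), the chemokine CXCL12 (-2.50, SE 0.63), the focal adhesion protein LPXN (-2.48, SE 0.30), the scavenger receptor COLEC12 (-2.37, SE 0.35) and the metallothionein MT2A (-2.36, SE 0.50) complete the 14. The F test kept 13 of them, with CXCL12 the exception (FDR = 0.0537). Rows with a LOC symbol were not ranked here, and 1 of them, LOC100848103 (-2.97), would have stood among the 14.

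**Figure D2:**
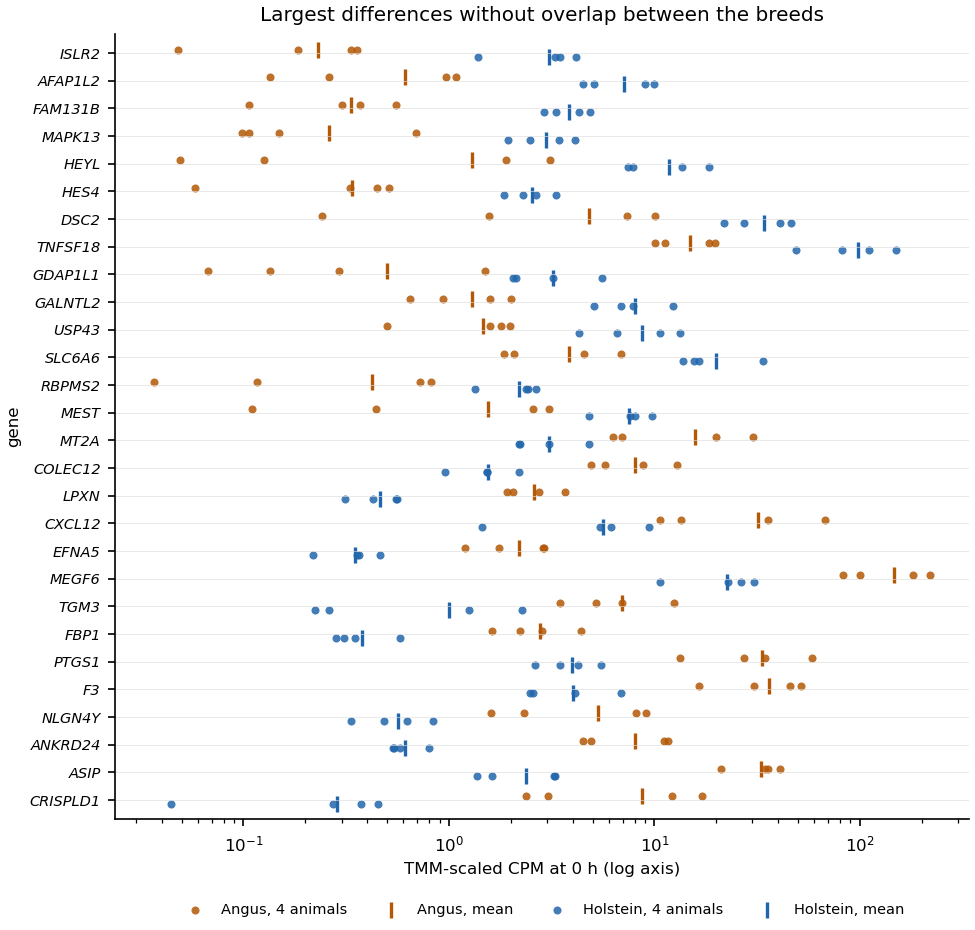
Levels of the 28 genes with the largest differences among rows past the threshold without overlap between the breeds, LOC symbols left aside, in TMM-scaled CPM on a log axis, with Angus in orange and Holstein in blue. Points are the 4 animals of a breed and bars their mean, and the Angus points spread more widely than the Holstein points in genes such as HEYL, DSC2 and MEST, where they run from 0.049 to 3.11, 0.241 to 10.1 and 0.11 to 3.06 CPM.

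The functions of the genes were then described with 32 lists that hold 1276 genes. These lists were chosen with earlier results of these data known, so their counts and shares describe the rows and test nothing. Of all symbol rows, 1.98% were higher and 2.18% lower past the threshold, and each list count is to be read beside these shares. Of the 542 symbol rows past the threshold, 227 belonged to a list. The mitosis list had more rows past the threshold than any other list. Of 136 rows tested in the mitosis, replication and repair lists, 135 had a log2 fold change below 0, and 66 were past the threshold, all lower in Holstein.

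**Figure D3:**
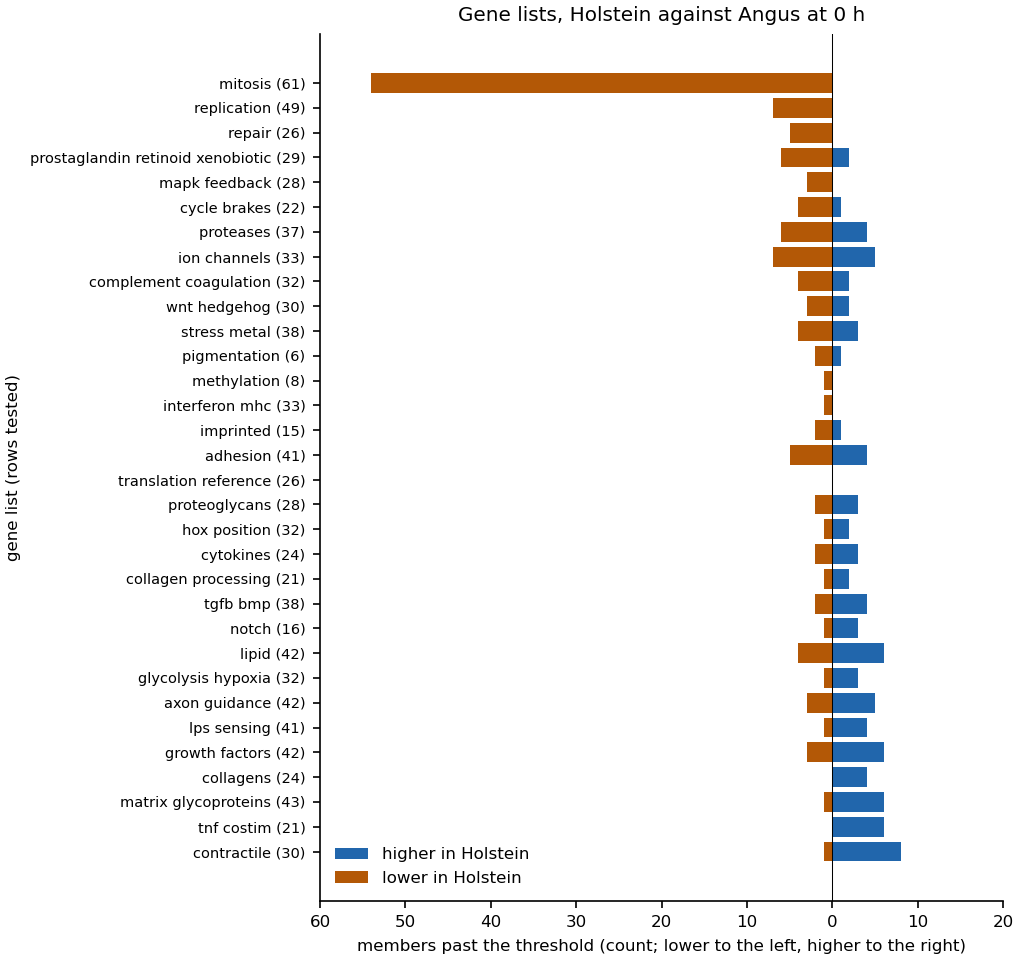
Number of rows past the threshold in each of the 32 gene lists, with rows lower in Holstein drawn to the left in orange and rows higher in Holstein to the right in blue, and the number of rows tested in parentheses. The mitosis list reaches 54 rows to the left, and the contractile list has the longest bar to the right with 8.

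The mitosis list holds cyclins, kinases, spindle and kinetochore proteins and condensins that act between the late G2 phase and cell separation. Of its 61 rows, 54 were past the threshold and lower in Holstein and none was higher, with a median log2 fold change of -1.31 against 0.00 for all symbol rows. The breeds were separated in 47 of the 61, against 8.51% of all rows. CENPA, the centromeric histone, had the largest difference, -1.95 (SE 0.39, FDR = 0.000119), with 51.5, 27.7, 17.7 and 52.1 CPM in Angus and 10.4, 9.04, 14.1 and 4.86 CPM in Holstein. ASPM, a spindle pole protein, gave -1.89 (SE 0.36), TOP2A, which untangles chromosomes, -1.84 (SE 0.35), and CDC20, the activator of the anaphase-promoting complex, -1.66 (SE 0.34). MKI67, the antigen Ki-67 of cycling cells, was at 295.3, 203.3, 130.4 and 399.7 CPM in Angus and at 92.9, 77.5, 109.6 and 56.0 CPM in Holstein (-1.61, SE 0.33, FDR = 0.000143). CCNB1, cyclin B1, gave -1.58 (SE 0.35). In these genes the breeds did not overlap, and Angus 3 was the Angus sample nearest to Holstein. PTTG1, or securin, was the 1 row of the list above 0, at 0.04 (SE 0.18, FDR = 0.917), and with total counts in place of TMM it lay below 0 too.

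The order of the animals was nearly the same throughout the list. Angus 3 was the lowest Angus sample in 60 of the 61 rows, Angus 4 the highest in 59, and Holstein 4 the lowest Holstein sample in 61. The summed level of the list was 5428, 4219, 2566 and 6559 CPM in Angus and 2086, 1747, 2291 and 1240 CPM in Holstein. The spread within Angus was thus wider than the gap between Angus 3 and Holstein 3. In the same cultures the sums stayed apart at 2 h, at 2328 to 5722 CPM among the Angus and 1071 to 2094 CPM among the Holstein animals. At 8 h they nearly met, at 3257 to 6597 CPM and 1936 to 3230 CPM. The number of rows separated in this direction was 45 at 2 h and 23 at 8 h. In RNA from whole cultures, fewer dividing cells and less of these transcripts per dividing cell cannot be told apart.

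The F test kept all 54 of the mitosis rows past the threshold. With 1 animal left out the list held 45 to 58 such rows, all lower in Holstein. The fewest were found without Angus 4 (45) and without Holstein 4 (46). Without the 3 libraries with the other COL1A1 counting, which include both of these animals, 1 row (TOP2A) was past the threshold, although 60 of 61 rows kept a value below 0 and the median was -0.85. With the counting way as a covariate there were again 54.

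Replication genes, which act in S phase, were lower by less. All 49 rows of that list were below 0 with a median of -0.76, and 7 were past the threshold, including the S phase transcription factors E2F8 (-1.54, SE 0.33) and E2F2 (-1.46, SE 0.39), the histone chaperone ASF1B (-1.29, SE 0.30) and RRM2, a subunit of ribonucleotide reductase (-1.26, SE 0.31). The helicase subunit MCM5 was at 85.9, 95.0, 54.6 and 147.1 CPM in Angus and at 61.2, 44.0, 47.4 and 36.9 CPM in Holstein (-1.01, SE 0.28). PCNA, the sliding clamp of the polymerases, gave -0.90 (SE 0.25, FDR = 0.00522), under the 2-fold limit. In both genes Angus 3 lay among the Holstein samples. Of 26 repair rows, all below 0 with a median of -0.63, RAD51AP1 (-1.29, SE 0.32), EXO1 (-1.14, SE 0.29), FANCD2 (-1.03, SE 0.29), FANCI (-1.02, SE 0.28, a span that holds other genes) and BARD1 were past the threshold. With the F test 4 replication and 3 repair rows were past it, and without Angus 4 there were 4 and 1. Without the 3 libraries with the other COL1A1 counting, no replication or repair row was past it, against 127 of 521 symbol rows kept.

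Among inhibitors and brakes of the cycle the directions were mixed, with a median of -0.03 over 22 rows. CDKN2B, the TGF-beta-responsive CDK4 inhibitor p15, was at 12.3, 14.8, 13.3 and 7.75 CPM in Angus and at 20.8, 19.7, 29.2 and 37.9 CPM in Holstein, with no overlap (1.16, SE 0.26, FDR = 0.000481). CDKN3 (-1.53, SE 0.31) and CDKN2C (-1.42, SE 0.31), the growth arrest gene GAS1 (-1.10, SE 0.29) and CDKN2D were lower. CDKN3 is itself a gene of dividing cells. Of 8 rows for DNA methylation enzymes, UHRF1, which guides DNMT1 to newly made DNA, was past the threshold, at 76.5, 63.3, 41.7 and 120.7 CPM in Angus and 43.2, 33.4, 32.4 and 22.1 CPM in Holstein, with Angus 3 below Holstein 1. DNMT1, the maintenance methyltransferase, was at 55.3, 53.1, 35.6 and 76.5 CPM in Angus and 45.0, 31.4, 37.2 and 28.8 CPM in Holstein, and its difference was under the 2-fold limit.

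**Figure D4:**
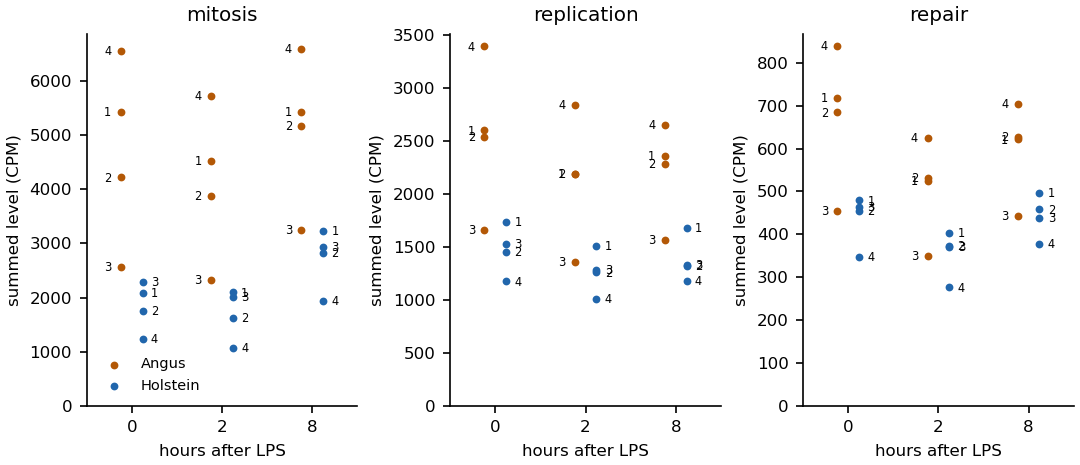
Summed TMM-scaled CPM of the mitosis, replication and repair lists in each sample at 0, 2 and 8 h after LPS, with Angus in orange, Holstein in blue and the animal number beside each point. Angus 4 is the highest and Holstein 4 the lowest in each panel at 0 h, and Angus 3 lies next to or within the Holstein samples.

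Fibrillar and basement membrane collagens are the main products of fibroblasts. Of 24 collagen rows, 4 were higher in Holstein and none lower, with a median of 0.30. COL4A1 and COL4A2, the neighbouring genes of the main basement membrane collagen, differed with little spread. COL4A1 was at 936, 1169, 1203 and 1006 CPM in Angus and at 2122, 2184, 2552 and 2291 CPM in Holstein (1.09, SE 0.13, FDR = 1.8e-14). COL4A2 was at 240.1, 335.5, 319.3 and 276.9 CPM in Angus and at 647, 658, 738 and 661 CPM in Holstein (1.21, SE 0.13, FDR = 2.31e-16). The 2 breeds stood clearly apart in both genes, and with total counts in place of TMM COL4A1 fell below the 2-fold limit. COL11A1, a regulator of fibril diameter, was at 186.6, 548.3, 555.4 and 182.3 CPM in Angus and at 983, 1276, 1500 and 1557 CPM in Holstein (1.85, SE 0.39, FDR = 0.00021). COL8A1, a short-chain collagen, gave 1.88 (SE 0.60, FDR = 0.0231), but its samples overlapped and the F test did not keep it.

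COL3A1 was at 13225 ± 4076 CPM in Angus and 25014 ± 3134 CPM in Holstein (SD, n = 4) without overlap, a difference of 0.92 (SE 0.22, FDR = 0.00087) that was under the 2-fold limit. COL1A1 cannot be read from these counts. It was at 8651, 8769, 10060 and 31543 CPM in Angus and at 10780, 34025, 10190 and 49577 CPM in Holstein, and the 3 high values were those of the libraries with the other counting. Its difference of 0.83 (SE 0.59, FDR = 0.388) did not pass the test. In covered bases per 1000000, from the deposited coverage, these 3 libraries were again the highest, at 27957 to 43218 against 13094 to 16774.

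Of 43 rows for adhesive and elastic-fibre glycoproteins, 6 were higher and 1, CRISPLD1, lower, with a median of 0.29. FN1, fibronectin, was at 4523, 8091, 7872 and 6601 CPM in Angus and at 13354, 16021, 18163 and 15704 CPM in Holstein (1.22, SE 0.19, FDR = 1.08e-07). MGP, the matrix Gla protein that restrains calcification, was at 18.9, 52.7, 55.4 and 27.5 CPM in Angus and at 91.5, 196.9, 78.0 and 164.0 CPM in Holstein (1.78, SE 0.40, FDR = 0.000573). AGRN, the heparan sulfate proteoglycan agrin, gave 1.65 (SE 0.34) without overlap. MATN3, a cartilage matrix protein, had a large but uneven difference, with 0.380, 2.97, 6.2 and 0.0482 CPM in Angus and 44.9, 5.60, 45.9 and 18.6 CPM in Holstein, so that Angus 3 lay above Holstein 2 (3.58, SE 1.04, F test FDR = 0.0726). SPON1 and EFEMP1 were the other 2.

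Proteoglycan genes, 28 rows with a median of 0.15, held 3 higher and 2 lower. ACAN, aggrecan, the large proteoglycan of cartilage, was at 6.72, 27.7, 16.8 and 5.05 CPM in Angus and at 161.1, 109.9, 36.0 and 25.6 CPM in Holstein (2.56, SE 0.65, FDR = 0.00385), with Holstein 4 below Angus 2. The F test did not keep it (FDR = 0.0558). The syndecan SDC1 (1.34, SE 0.23) and the chondroitin synthesis enzyme CHPF (1.26, SE 0.21) were higher without overlap, while SPOCK1 (-1.48, SE 0.44, not kept by the F test) and the sulfotransferase CHST1 were lower. DCN, decorin, was at 2081 ± 330.3 CPM in Angus and 2311 ± 313.3 CPM in Holstein (SD, n = 4), a difference within the spread (0.15, SE 0.15, FDR = 0.568). Among collagen-modifying enzymes the lysyl oxidase LOXL3 (1.63, SE 0.28, a span shared with HTRA2) and the prolyl hydroxylase subunit P4HA3 (1.13, SE 0.30) were higher and the procollagen processing enhancer PCOLCE2 (-1.06, SE 0.28) was lower.

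Of 37 rows for proteases and their inhibitors, 4 were higher and 6 lower. The F test kept 3 and 5 of them. The 3 rows of ADAMTSL1, an ADAMTS-like matrix protein, were all lower, and its longest row was at 30.4, 16.2, 19.2 and 27.8 CPM in Angus and 6.63, 5.68, 6.78 and 9.40 CPM in Holstein (-1.72, SE 0.24, FDR = 1.09e-09). CTSL1, a lysosomal cathepsin, was at 8.97, 7.53, 7.03 and 10.7 CPM in Angus and 2.89, 2.18, 2.07 and 1.89 CPM in Holstein (-1.92, SE 0.21, FDR = 2.06e-15). The spread was small in either breed. The aminopeptidase XPNPEP2 (-1.88, SE 0.34) and MME were lower. MMP15, FAP, CST3 and CTSZ were higher on all 8 samples, but with total counts in place of TMM, and also without Angus 4, none of the 4 was past the threshold.

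TGF-beta drives matrix synthesis and the contractile myofibroblast state. Of 38 rows for its ligands, receptors, antagonists and targets, 4 were higher and 2 lower, with a median of 0.09. TGFB2 was at 20.8, 44.1, 27.3 and 16.3 CPM in Angus and at 63.3, 68.4, 66.7 and 74.2 CPM in Holstein (1.33, SE 0.27, FDR = 0.000108). PMEPA1, a target and feedback inhibitor of TGF-beta signalling, was at 8.07, 12.8, 14.5 and 7.54 CPM in Angus and 23.6, 34.9, 28.6 and 34.8 CPM in Holstein (1.51, SE 0.24, FDR = 1.28e-07). TGFB3 and the BMP antagonist CHRD (1.26, SE 0.34) were also higher. ID1, a direct target of BMP signalling, went the other way, at 28.1, 32.4, 29.8 and 47.9 CPM in Angus and 11.8, 14.4, 7.22 and 6.75 CPM in Holstein (-1.78, SE 0.28, FDR = 9.38e-08), and the co-receptor TGFBR3 was lower. All 6 were separated between the breeds, and the F test kept all but CHRD.

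Contractile and smooth muscle genes had the largest number of higher rows of any list, 8 of 30, with 1 lower and a median of 0.43, and 26 of the 30 rows lay above 0. Separation with Holstein higher was found in 15 of the 30, against 10.4% of all rows, in a list chosen with earlier results known. DMPK, the myotonic dystrophy kinase, was at 3.40, 5.09, 6.395 and 4.74 CPM in Angus and 23.1, 16.1, 14.6 and 15.7 CPM in Holstein (1.82, SE 0.22, FDR = 2.51e-12). SPEG, a kinase of striated and smooth muscle, was at 10.2, 9.42, 12.7 and 5.11 CPM in Angus and 24.6, 29.8, 25.9 and 29.5 CPM in Holstein (1.56, SE 0.24, FDR = 1.02e-07). PPP1R14A, an inhibitor of myosin phosphatase, gave 2.07 (SE 0.41) and CASQ2, a calcium store protein, 1.67 (SE 0.44). HSPB6, OBSL1, MRVI1 and ACTC1 were higher too, and the chaperone HSPB8 was lower. ACTA2, smooth muscle actin, was at 3504, 5884, 4506 and 4045 CPM in Angus and at 7825, 6465, 6437 and 6341 CPM in Holstein, separated but by less than 2-fold (0.59, SE 0.17, FDR = 0.00792). In the F test 7 of the 8 were kept, and without the 3 libraries 4 were past the threshold.

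**Figure D5:**
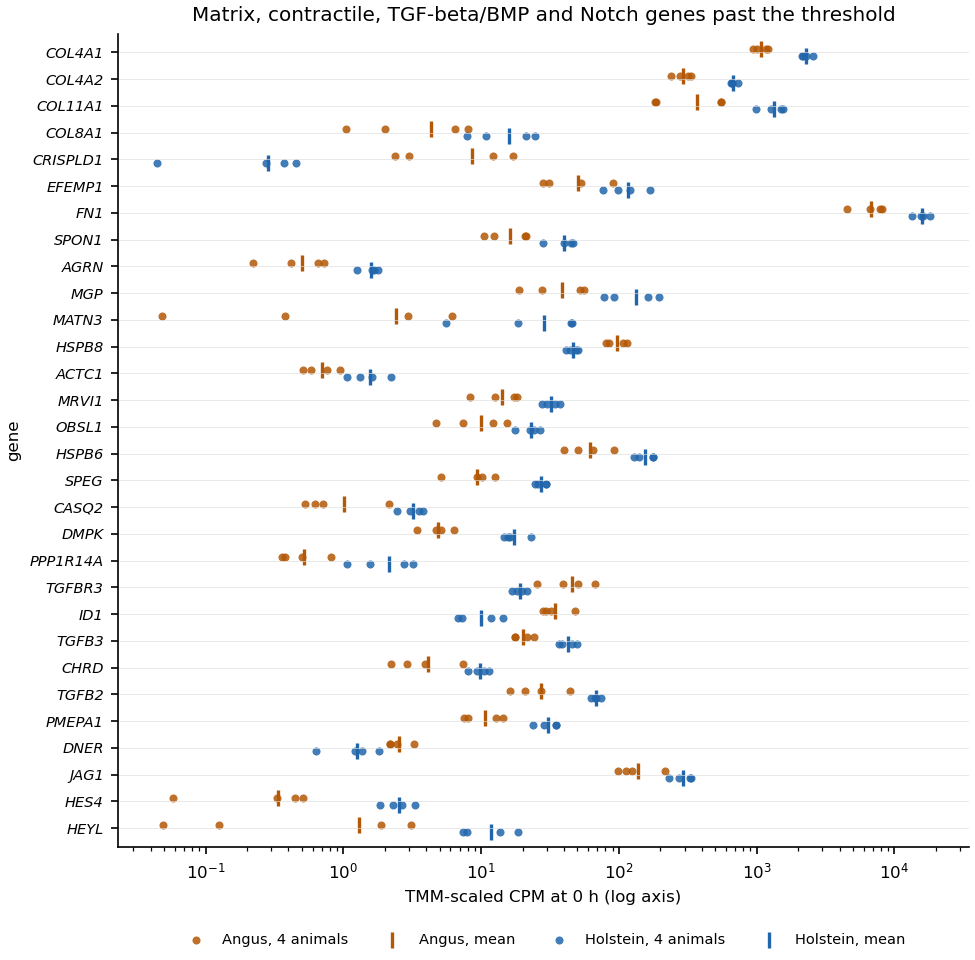
Levels of the rows past the threshold in the collagen, matrix glycoprotein, contractile, TGF-beta and BMP, and Notch lists, from top to bottom, in TMM-scaled CPM on a log axis. Points are the 4 animals of each breed, bars the means, and the breeds lie close together and apart for COL4A1 and COL4A2, while MATN3 in Angus runs from 0.0482 to 6.2 CPM.

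Notch signalling passes between neighbouring cells, from a membrane ligand to a receptor whose cleaved part switches on repressors of the HES and HEY families. Of 16 rows, 3 were higher in Holstein and 1 was lower, with a median of 0.21. Over the whole list 9 rows lay above 0 and 7 below. The ligand JAG1 was at 98.9, 216.5, 123.9 and 112.7 CPM in Angus and at 328.1, 336.3, 275.6 and 232.8 CPM in Holstein (1.09, SE 0.25, FDR = 0.000606). The target HEYL, whose span overlaps BMP8B, was at 0.0490, 3.11, 1.89 and 0.125 CPM in Angus and at 13.7, 18.4, 7.87 and 7.44 CPM in Holstein (3.19, SE 0.94, FDR = 0.0196). HES4 was at 0.331, 0.448, 0.509 and 0.0579 CPM in Angus and at 2.29, 3.31, 1.85 and 2.67 CPM in Holstein (2.91, SE 0.49, FDR = 2.47e-06). JAG1, HEYL and HES4 were thus higher in every Holstein animal than in any Angus animal. HEYL was the least certain of them, since it was lost without Angus 4, Holstein 1 or Holstein 2 and in the F test. JAG1 was not past the threshold with total counts in place of TMM or without Angus 1. With the 3 libraries left out HEYL and JAG1 were not past the threshold and HES4 fell under the CPM filter. DNER, a Notch-binding membrane protein, was lower (-1.0, SE 0.32) and was not kept by the F test.

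Of 30 Wnt and hedgehog rows, 2 were higher and 3 lower, against 1.98% and 2.18% of all symbol rows, with a median of -0.29. DKK2, a secreted Wnt modulator, was at 12.7, 9.54, 9.38 and 30.5 CPM in Angus and 2.25, 1.47, 3.74 and 4.75 CPM in Holstein (-2.35, SE 0.46, FDR = 0.000103). GLI1, the transcriptional target of hedgehog signalling, was at 2.19, 3.90, 2.24 and 4.80 CPM in Angus and 1.73, 1.05, 1.42 and 0.578 CPM in Holstein (-1.45, SE 0.38, a span shared with ARHGAP9). The Wnt inhibitor APCDD1 was lower (-1.26, SE 0.32), and WISP1 (1.08, SE 0.21) and the transcription factor TCF7 were higher.

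The list of ERK-pathway feedback and immediate-early genes, 28 rows with a median of -0.28, held 3 lower and none higher. FOSL1, a subunit of AP-1, was at 67.0, 34.8, 23.4 and 90.6 CPM in Angus and at 15.4, 10.0, 15.4 and 16.4 CPM in Holstein (-1.92, SE 0.38, FDR = 9.18e-05). RCAN1, an inhibitor of calcineurin, was even within each breed, at 135, 99.5, 102.3 and 124.9 CPM in Angus and 46.6, 42.7, 48.1 and 43.3 CPM in Holstein (-1.35, SE 0.13, FDR = 8.64e-21). The ERK phosphatase DUSP6 gave -1.31 (SE 0.39) with overlap, and the F test did not keep it (FDR = 0.0647).

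Growth factors, their receptors and IGF-binding proteins, 42 rows, held 6 higher and 3 lower. GAS6, a ligand of the receptor AXL, was at 2.53, 2.70, 4.08 and 2.07 CPM in Angus and 11.2, 8.98, 9.41 and 17.3 CPM in Holstein (2.04, SE 0.28, FDR = 7.68e-10). IGFBP7 (1.99, SE 0.52, a span shared with POLR2B), IGF2BP2, an RNA-binding protein of IGF2 messages (1.90, SE 0.44), FGF10 (1.39, SE 0.50) and IGFBP3 (1.26, SE 0.39) were higher, with FLT1. IGFBP3 was uneven, with 97.3, 277.8, 71.2 and 128.8 CPM in Holstein against 58.1, 64.8, 76.3 and 41.4 CPM in Angus, and without Holstein 2, Angus 1 or Angus 4 it was not past the threshold. MET, the receptor of hepatocyte growth factor, was at 29.4, 20.9, 22.03 and 29.2 CPM in Angus and 13.6, 10.4, 9.49 and 13.6 CPM in Holstein (-1.11, SE 0.18, FDR = 2.76e-07), and FGFR3 and IGFBP4 were lower as well. The F test kept 3 of the higher and 1 of the lower rows.

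Of 42 rows for guidance molecules, 5 were higher and 3 lower, against 1.98% and 2.18% of all symbol rows, and 13 were separated with Holstein higher, against 10.4%. In the F test 4 and 2 were kept, without SEMA7A and EPHB2. SEMA5B was at 17.6, 33.6, 25.5 and 15.7 CPM in Angus and 88.4, 74.8, 68.9 and 89.1 CPM in Holstein (1.80, SE 0.23, FDR = 7.71e-11), and SEMA7A gave 1.75 (SE 0.59). ISLR2, SEMA5A and the netrin receptor UNC5B were the other 3. EFNA5, EPHB2 and EPHB4, an ephrin and its receptor family, were lower.

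For the sensing of LPS and other bacterial products, 41 rows were tested, of which 4 were higher and 1 lower, and the F test kept 1 of each. TLR4, the LPS receptor, was at 0.832, 0.953, 2.73 and 0.444 CPM in Angus and 3.05, 5.42, 2.61 and 3.87 CPM in Holstein, with Angus 3 above Holstein 3. The TLR4 difference was 1.59 (SE 0.50, FDR = 0.0209). Its call was lost in the F test, with the counting way as a covariate, and in 5 of the 8 fits that left out 1 animal. After LPS, every Holstein culture lay above every Angus culture for TLR4. The highest Angus level was 1.25 CPM at 2 h and 1.61 CPM at 8 h, against lowest Holstein levels of 2.46 and 2.01 CPM. By RT-qPCR of the same RNA, the study reports more TLR4 in Holstein before and after LPS. TLR2, the receptor of bacterial lipoproteins, was at 1.21, 0.953, 1.49 and 2.33 CPM in Angus and 0.432, 0.454, 0.414 and 0.444 CPM in Holstein. Its call was lost with DESeq2, on coverage and without the 3 libraries, and it fell under the CPM filter when any 1 Angus animal was left out. The adaptor TRAF1 (1.30, SE 0.24) was higher without overlap, and IRF5 (1.28, SE 0.44) and SARM1 with overlap. None of the 4 higher rows was past the threshold without the 3 libraries with the other COL1A1 counting. Over all symbol rows, 127 of 521 stayed past it in that fit. The other 36 rows were not past the threshold, and CD14, the LPS co-receptor, was under the CPM filter and not tested.

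Cytokines and chemokines were mostly too low to test before LPS, and 24 of 48 rows were under the CPM filter. IL8, a neutrophil chemokine, was not tested, at 0.122, 0.241, 0.206 and 0.174 CPM in Angus and 0.0894, 0.0732, 0.0545 and 0.0666 CPM in Holstein. CXCL12, a chemokine made by fibroblasts at rest, was at 35.9, 13.5, 10.7 and 67.4 CPM in Angus and 5.45, 1.45, 6.12 and 9.44 CPM in Holstein. Its receptor CXCR4 was at 4.395, 5.47, 3.00 and 7.94 CPM in Angus and 1.16, 2.27, 2.84 and 0.533 CPM in Holstein, with Angus 3 and Holstein 3 close. The F test kept neither CXCL12 (FDR = 0.0537) nor CXCR4 (FDR = 0.0667), and CXCR4 was also lost without Angus 4 or Holstein 1. IL18 (1.10, SE 0.20), the eosinophil chemokine CCL26 (1.47, SE 0.45) and IL34 were higher. None of these higher rows was past the threshold without the 3 libraries with the other COL1A1 counting, against 127 of 521 symbol rows kept.

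In the TNF superfamily and co-stimulatory list 6 of 21 rows were higher and none lower, with a median of 0.32. TNFSF4, or OX40 ligand, which lies next to TNFSF18, was at 0.477, 0.563, 0.368 and 0.338 CPM in Angus and 1.45, 1.25, 2.88 and 2.16 CPM in Holstein (2.15, SE 0.33, FDR = 4.69e-08). The order of the Holstein animals was the same for both ligands, with Holstein 3 first and Holstein 2 last. TNFRSF19 gave 1.63 (SE 0.37), OSCAR, a symbol on 2 rows, 1.24 (SE 0.43) on 1 of them, and TNFRSF25 and HAVCR2 were the others. Of the 6, the F test kept 4. Interferon-stimulated and antigen processing genes, 33 rows with a median of -0.01, held 1 row past the threshold, the peptide transporter TAP1 (-1.13, SE 0.37, F test FDR = 0.0757). That is near the share of all symbol rows that were lower, 2.18%.

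Complement and coagulation genes, 32 rows, held 2 higher and 4 lower. THBD, thrombomodulin, which turns thrombin into an anticoagulant enzyme, was at 29.0, 13.6, 12.6 and 26.9 CPM in Angus and 4.23, 4.39, 8.44 and 5.40 CPM in Holstein (-1.87, SE 0.33, FDR = 7.69e-06). F3, the initiator of clotting, was thus lower together with a surface anticoagulant. COLEC12 and MASP1 were lower as well. PROS1, the anticoagulant protein S, was among the higher rows. In the F test 3 of the lower and none of the higher rows were kept.

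Prostaglandin, retinoid and xenobiotic genes, 29 rows, held 2 higher and 6 lower. Beside PTGS1, HPGD, the enzyme that inactivates prostaglandins, was lower, at 38.2, 15.2, 11.0 and 33.6 CPM in Angus and 7.38, 6.97, 4.98 and 5.49 CPM in Holstein (-1.98, SE 0.37, FDR = 3.3e-05). GATM, of creatine synthesis, gave -2.004 (SE 0.33). RDH10, the first enzyme from retinol to retinoic acid, was higher, at 15.1, 32.6, 26.9 and 18.7 CPM in Angus and 61.8, 56.8, 85.9 and 63.4 CPM in Holstein (1.52, SE 0.25, FDR = 2.78e-07). CYP26B1, which degrades retinoic acid, was lower, but its samples overlapped. The F test kept both higher rows and 5 of the 6 lower rows, without CYP26B1 (FDR = 0.0549). AHRR and SULT1B1 were the other lower members and CYP3A4, whose span is shared with CYP3A5, the other higher one.

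Of 38 rows for oxidative and metal stress, 3 were higher and 4 lower. The metallothionein MT2A was at 19.9, 6.96, 6.28 and 30.1 CPM in Angus and 3.08, 2.20, 4.79 and 2.22 CPM in Holstein. The oxidase DUOX1 (-1.86, SE 0.44), the extracellular superoxide dismutase SOD3 (-1.71, SE 0.33) and HMOX1, heme oxygenase, were lower. TXNIP, which restrains glucose uptake and thioredoxin, was at 41.0, 43.5, 60.1 and 36.5 CPM in Angus and 88.3, 114.9, 118.2 and 126.9 CPM in Holstein (1.31, SE 0.18, FDR = 5.35e-10, a span shared with LOC100848155), and the peroxidase GPX3 gave 1.96 (SE 0.48), with NOXA1 the other higher row. HSPA1A and other heat shock genes of the list were not past the threshold.

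Lipid genes, 42 rows with a median of -0.03, held 6 higher and 4 lower. The sterol exporter ABCA1 (1.59, SE 0.47), the lipid carrier APOE (1.10, SE 0.32) and the transporter ABCA6 (1.24, SE 0.45) were higher. So were OLR1, the receptor of oxidised LDL (1.43, SE 0.29), FADS6 and ELOVL7. With the F test 1 of the 6 was kept, OLR1. Without the 3 libraries with the other COL1A1 counting, none of the 6 was past the threshold, against 127 of 521 symbol rows kept. SCD, the desaturase that makes oleic acid, was lower and even, at 31.0, 30.9, 23.5 and 39.6 CPM in Angus and 14.8, 16.6, 12.6 and 11.3 CPM in Holstein (-1.18, SE 0.19, FDR = 1.06e-07). The fatty acid carrier FABP3 (-1.27, SE 0.27), ACSS3 and LIPG were lower too, and the F test kept all 4.

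Of 32 glycolysis and hypoxia rows, ALDOC (1.30, SE 0.40), PKLR (1.13, SE 0.30) and EGLN3 (1.12, SE 0.38) were higher, and ADM, the vasodilator peptide adrenomedullin, was lower, at 46.5, 39.7, 43.9 and 47.7 CPM in Angus and 19.04, 5.93, 9.87 and 15.4 CPM in Holstein (-1.82, SE 0.30, FDR = 1.09e-06). PKLR was kept by the F test but not ALDOC or EGLN3, and without Holstein 1 none of the 3 was past the threshold. Over all symbol rows the shares past the threshold were 1.98% higher and 2.18% lower. GAPDH was at 1323 ± 61.2 CPM in Angus and 1185 ± 165.4 CPM in Holstein (SD, n = 4) and overlapped. None of the 26 rows of ribosomal and reference genes was past the threshold, with a median of -0.07, and ACTB gave -0.08 (SE 0.12, FDR = 0.714).

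Ion channel genes, 33 rows, held 5 higher and 7 lower. The adjacent sodium channel genes SCN9A and SCN1A on chromosome 2 were both lower. SCN9A was at 8.21, 7.27, 2.93 and 8.27 CPM in Angus and 1.04, 0.952, 2.42 and 1.67 CPM in Holstein (-2.13, SE 0.40), and SCN1A at 12.7, 5.29, 6.72 and 8.65 CPM in Angus and 2.92, 1.92, 2.497 and 0.466 CPM in Holstein (-2.09, SE 0.48). The phosphodiesterase PDE1C (-1.90, SE 0.49), PDE10A, the water channel AQP1, PKD2L1 and CACNA1C were also lower. GLRB (2.06, SE 0.59), TRPV4, CACNA1A, AQP11 and KCNK6 were higher, and without Angus 4 1 of these 5 was past the threshold. By the F test 3 of the higher and 6 of the lower rows were kept.

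Of 41 adhesion rows, PODXL (-2.44, SE 0.78), the integrin subunit ITGA4 (-1.68, SE 0.54), CADM3 (-1.47, SE 0.31), PDPN (-1.45, SE 0.45) and CADM1 (-1.16, SE 0.24) were lower and ITGA11, CDH17, ITGBL1 and CELSR3 higher. Of these, 2 higher and 2 lower rows were kept by the F test, without PODXL, ITGA4, PDPN, CDH17 and CELSR3. PODXL rested on Angus 1 and Angus 4, at 9.92 and 9.69 CPM against 1.68 and 1.14 CPM in Angus 2 and Angus 3 and 0.253 to 2.34 CPM in Holstein. Of 32 HOX and other positional rows, BNC2 (1.49, SE 0.33) and NKX2-2 (1.35, SE 0.33) were higher and MESP2 (-1.73, SE 0.34) lower. The shares of all symbol rows were 1.98% higher and 2.18% lower. No HOX gene was past the threshold.

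Of 15 imprinted rows, MEST was higher, at 0.110, 2.57, 3.06 and 0.444 CPM in Angus and 9.68, 8.01, 4.83 and 7.60 CPM in Holstein (2.28, SE 0.76, FDR = 0.0346, a span that holds MIR335). DIRAS3 was lower, at 2.68, 1.96, 1.65 and 1.601 CPM in Angus and 0.253, 0.601, 0.567 and 0.244 CPM in Holstein (-2.21, SE 0.34, FDR = 4.85e-08), and so was PEG10 (-1.38, SE 0.28). In the pigment list, beside ASIP, the ion exchanger SLC24A5 was lower (-1.11, SE 0.31) and MRAP2 higher (1.37, SE 0.41), and neither was kept by the F test.

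Cell type markers were used to check the label. All 18 fibroblast markers passed the CPM filter and none was past the threshold, with VIM at 4068 to 6760 CPM and LUM at 773 to 1127 CPM over the 8 samples. Their sum was 57379 to 73400 CPM in the Angus and 76640 to 130116 CPM in the Holstein samples. COL1A1, with its uneven covered bases per count, contributes to it. PDGFRA, a growth factor receptor of fibroblasts, was at 305.2 ± 97.0 CPM in Angus and 159.7 ± 24.1 CPM in Holstein (SD, n = 4) without overlap, by less than 2-fold (-0.93, SE 0.23, FDR = 0.00122), and COL3A1 was separated in the other direction. Summed endothelial markers stood at 2.87 to 3.66 CPM among the Angus and 3.13 to 5.48 CPM among the Holstein animals, leukocyte markers at 3.61 to 5.49 and 3.05 to 4.30 CPM, and skeletal muscle markers at 0.28 to 0.586 and 0.294 to 1.20 CPM. Of the 25 keratinocyte markers 5 passed the filter, and their sum was 13.7 to 62.8 CPM among the Angus and 78.3 to 237 CPM among the Holstein animals, mostly from the desmocollins DSC2 and DSC3. DSC3 was at 8.94, 25.3, 39.8 and 2.47 CPM in Angus and 140.7, 39.7, 61.9 and 100.8 CPM in Holstein (2.17, SE 0.69, F test FDR = 0.0919). The 10 keratins of that list summed to 0.49 to 0.723 CPM in Angus and to 23.8, 0.85, 1.56 and 0.844 CPM in Holstein. Holstein 1 held KRT5 at 9.18 and KRT17 at 8.49 CPM, while KRT17 had 0 counts in all Angus samples and was at 0 to 0.0763 CPM in the other Holstein samples. DSC2 was at 1.57, 7.33, 10.1 and 0.241 CPM in Angus and 46.4, 21.9, 27.3 and 41.0 CPM in Holstein (2.83, SE 0.80), so that Holstein 4 was close to Holstein 1, and it was past the threshold without Holstein 1. The part of keratinocyte RNA in other differences was not tested.

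Some papillary and some reticular fibroblast markers differed in opposite directions. Of 4 papillary rows tested, PDPN, APCDD1 and CADM1 were lower in Holstein, and the summed list was 24.8 to 44.0 CPM among the Angus and 12.9 to 23.7 CPM among the Holstein animals. The largest part of this sum was NTN1, at 23.0 ± 8.42 CPM in Angus and 11.7 ± 4.84 CPM in Holstein (SD, n = 4), which overlapped and was not past the threshold (-0.97, SE 0.34, FDR = 0.0384). The F test did not keep PDPN, and on coverage none of the 3 was past the threshold. Of 8 reticular rows, PPP1R14A, COL11A1 and MGP were higher. ACTA2, MFAP5, CDH2, CNN1 (0.07, SE 0.16) and PPARG (-0.59, SE 0.32) were not past the threshold. Without the 3 libraries with the other COL1A1 counting, no reticular row was past the threshold, against 127 of 521 symbol rows kept. The reticular sum, most of which is ACTA2, was 3972 to 6892 CPM among the Angus and 8354 to 9344 CPM among the Holstein animals. Of the 8 papillary rows 4 were under the filter, and several of the reticular genes also stand in the contractile and collagen lists. RGS5, a pericyte marker whose span overlaps RGS4, was higher on all 8 samples (1.33, SE 0.39, F test FDR = 0.0607).

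The differences found before LPS were then followed in the same cultures after it, as a description of these animals. Of the 258 rows higher in Holstein at 0 h, 193 were separated in the same direction at 2 h and 195 at 8 h, and 151 at all 3 hours. Over all symbol rows tested, the share separated with Holstein higher was 12.8% at 2 h and 11.9% at 8 h. Of the 284 lower rows, 169 were separated in that direction at 2 h and 134 at 8 h, and 101 at all 3 hours, against 13% and 10.6% of all symbol rows. Of the 14 largest higher rows 13 stayed separated at both later hours, with GDAP1L1 the exception at 8 h, and of the 14 largest lower rows 10 did.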

How the data were processed

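The authors removed low-quality and short reads, aligned the rest to the bovine genome UMD v3.1 with NextGENe 2.3.4 after base calling with CASAVA 1.7, and deposited 1 table per library. Its rows are gene spans or intervals without a symbol, with raw read counts per row and, as the authors' signal, the mean coverage per base. Whether counting used strand is not given in the sources used here, so overlapping genes are named where they bear on a value. Of 59846 rows, 27550 carry a symbol (348 of them share one), and 85.2% to 87.1% of counts lay in symbol rows.

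The counts were analysed with edgeR 4.0.16 in R 4.3.3. Rows with at least 1 CPM in at least 50% of the 8 samples were kept (20385), scaled by TMM, and fitted with a generalized linear model of the 4 Angus and 4 Holstein samples of 0 h, with tagwise dispersions, a likelihood-ratio test and Benjamini-Hochberg adjustment, after the study's methods, which do not name the scaling. SE values come from the negative binomial information. Group assignment followed the sample titles. P-values measure the spread between these animals, each with 1 culture. The script was tested on simulated data. Alternatives were the quasi-likelihood F test, DESeq2 1.42.0, other scalings and filters, limma 3.58.1 on coverage, the animal number as a block, the counting way as a covariate and fits with libraries left out.

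Genes were named by rule: the 14 largest and 14 smallest separated differences among single-row symbols other than LOC, MGC, KIAA and orf names, up to 4 rows past the threshold per list by size, and 1 or more anchor genes of most lists. Other list members past the threshold are named without values, and keratins and neighbouring pairs were singled out after their values were seen. The members and lists were chosen with earlier results of these data known. Genes of the lists with no row under their symbol, such as DNMT3B, NOTCH3, LPL and TLR1, were not analysed here.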

Additional observations from a re-analysis of the deposited data

Results flagged for a closer look

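Among 386 groups of 4 animals tested, 20 held a sample that stood apart from the other 3 by Dixon's criterion at the 95% level, and chance flags about 1 in 20 groups. Among Holstein animals, SLC6A6 was high in Holstein 2 at 33.7 CPM, IL18 in Holstein 2 at 33.1 CPM, ABCA6 in Holstein 2 at 14.6 CPM, ANKRD24 in Holstein 4 at 0.800 CPM, OLR1 in Holstein 4 at 38.4 CPM, COL4A2 in Holstein 3 at 738 CPM and ACTA2 in Holstein 1 at 7825 CPM, and FOSL1 was low in Holstein 2 at 10.0 CPM. Among Angus animals, GDAP1L1 was high in Angus 2 at 1.504 CPM, MAPK13 in Angus 3 at 0.693 CPM, CASQ2 in Angus 3 at 2.15 CPM, TNFRSF19 in Angus 3 at 0.920 CPM, DKK2 in Angus 4 at 30.5 CPM and COL1A1 in Angus 4 at 31543 CPM. In COL1A1 the covered bases per count of that library differed, as described above.

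Summed levels stood apart for the adhesion list in Holstein 4 (8049 CPM), the reticular fibroblast markers in Holstein 1 (9344 CPM), the endothelial markers in Holstein 2 (5.48 CPM), the Schwann or neural markers in Holstein 4 (7.42 CPM), the adipocyte markers in Holstein 3, which were low (9.41 CPM), and the keratins in Holstein 1 (23.8 CPM).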

How the results depend on the processing

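Of 20385 rows tested, with or without a symbol, 781 were past the threshold. The count was 259 without the 3 libraries with the other COL1A1 counting, 410 on coverage in place of counts and 2816 with the FDR alone, and 515 to 1119 with 1 animal left out. The 258 higher symbol rows became 165 with the F test, 81 without the 3 libraries, 127 on coverage and 1022 with the FDR alone, and ranged from 170 to 421 with 1 animal left out. The 284 lower symbol rows became 74, 176 and 1007 in the last 3 of these settings and ranged from 192 to 366 with 1 animal left out. Angus 4, Angus 3 and Holstein 4 moved a count by more than 1.5 times. With total counts in place of TMM the median of all symbol rows shifted to -0.09, and 34.8% of the symbol rows past the threshold were higher, against 47.6%. Of the 542 symbol rows past the threshold, all that could be tested kept their direction in every setting, and 401 stayed past it with the F test, 530 with DESeq2, 346 of 523 without Angus 4 and 127 of 521 without the 3 libraries. ACTB, not past the threshold in either fit, turned from -0.08 to 0.027 without the 3 libraries (FDR = 0.982). The causes of these changes were not tested. With the animal number as a replicate block 787 rows, 283 higher and 267 lower with a symbol, were past the threshold. The same number names unrelated animals of the 2 breeds, and their deviations were not paired (mean r = -0.13, from -0.36 to 0.11, against 0.04 for different numbers). Levels near 3 counts, as for several genes in Angus or Holstein that lead the comparison, limit the size of their fold changes.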

Other observations

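Some neighbouring genes were past the threshold together. This pattern was noticed in the data and was not tested. Of 12185 pairs of neighbouring symbol rows that do not overlap, both rows were past the threshold in the same direction in 40 (0.328%), 23 of them higher and 17 lower in Holstein, and 18 pairs included a row with a LOC symbol. Beside the collagen, sodium channel, desmocollin and TNF ligand pairs described above, the pair of ARHGAP29, a GTPase regulator, and ABCA4, a retinoid transporter, on chromosome 3 was higher in Holstein, with log2 fold changes of 1.11 (SE 0.16) and 1.10 (SE 0.20) and 67008 bases between them.

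Melanocyte markers summed to 11.4 to 13.2 CPM among the Angus and 6.62 to 9.32 CPM among the Holstein animals without overlap. The largest part of that sum was MITF, with means of 8.16 CPM in Angus and 4.45 CPM in Holstein (-0.88, SE 0.15, FDR = 1.94e-06), under the 2-fold limit. PMEL overlapped, with means of 1.96 and 1.815 CPM, and TYR, under the CPM filter, had means of 0.534 and 0.538 CPM. Adipocyte markers summed to 13.1 to 22.5 and 9.41 to 17.1 CPM with overlap. Summed Schwann or neural markers were at 2.57 to 7.25 CPM among the Angus and 5.44 to 7.42 CPM among the Holstein animals, and pericyte or smooth muscle markers at 477.2 to 648 and 593 to 739 CPM. No marker of these lists was past the threshold except RGS5.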
